A study of Rattus norvegicus with 84 samples.

Results

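The microRNA (miRNA) cargo of brain-derived extracellular vesicles (EVs) was compared between stroke rats that received human neural stem cells (hNSCs) and stroke rats that received saline, at 4 days poststroke. The comparison used 6 of the 84 libraries of the study, and its members were the 699 known rat miRNAs in the table of counts by unique molecular identifier (UMI). A total of 594 of them had at least 1 count in the 6 libraries. By a filter on low counts across all 21 brain EV miRNA libraries of the study, 350 were tested. All rats were male wild-type Sprague-Dawley rats aged 8 to 12 weeks, and all 6 had a transient occlusion of the middle cerebral artery for 90 min. On day 3 the hNSCs group was injected with hNSCs through the common carotid artery and the control group with saline, so day 4 was 1 day after the injection. Each group held 3 rats. The hNSCs came from a single line of human fetal telencephalon, and EVs were isolated from an enzyme-dissociated piece of the frozen hemisphere on the stroke side.

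EVs are membrane particles that cells release with a sample of their RNA, and tissue EVs mix the output of all cell types of that tissue. A miRNA guides silencing complexes to messenger RNAs, mostly through its seed, the bases near its 5′ end, so that miRNAs with a shared seed have overlapping targets. Several brain miRNAs are made mainly by a single cell type, among them miR-124 in neurons, miR-219a in oligodendrocytes, miR-204 and miR-1298 in the choroid plexus and miR-34b and miR-34c in cells with motile cilia.

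The sequences of 12 miRNAs are shown first, because several of them share a seed or differ by few bases, and near-identical miRNAs may not be separate observations. They are the miRNAs described most closely below, 10 of the 12 with the lowest p values and the choroid plexus miRNAs miR-211-5p and miR-448-3p. The mature sequences are given 5′ to 3′ as in the deposited tables, in DNA letters, with the seed (bases 2 to 8) in capitals. Choroid plexus miRNAs were
miR-204-5p: tTCCCTTTgtcatcctatgcct
miR-211-5p: tTCCCTTTgtcatcctttgcct
miR-1298: tTCATTCGgctgtccagatgta
miR-448-3p: tTGCATATgtaggatgtccca
Cilia miRNAs were
miR-34b-5p: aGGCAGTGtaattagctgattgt
miR-34c-5p: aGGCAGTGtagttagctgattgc
The miR-7 pair was
miR-7a-5p: tGGAAGACtagtgattttgttgt
miR-7b: tGGAAGACttgtgattttgttgt
and the other miRNAs shown were
miR-653-5p: tTGAAACAttctctactgaac
miR-431: tGTCTTGCaggccgtcatgca
miR-370-3p: gCCTGCTGgggtggaacctggt
miR-29a-5p: aCTGATTTcttttggtgttcag

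Within the choroid plexus group, miR-204-5p and miR-211-5p shared a seed, and miR-1298 and miR-448-3p had other seeds. miR-204-5p and miR-211-5p differed at 1 of 22 bases. miR-34b-5p and miR-34c-5p shared a seed and differed at 2 of 23 bases. miR-7a-5p and miR-7b differed at 1 of 23 bases, and their counts differed by at most 0.494% in any library, so they may share reads. Counts below hold both, and the main ones are also given with the pair as 1. Of the 26 miRNAs named here, 25 were listed by RefSeq (assembly GRCr8), all 25 with the sequence of the deposited tables. In that annotation miR-204 lies within Trpm3, miR-1298 and miR-448 within the serotonin receptor gene Htr2c, miR-211 within Trpm1 and miR-653 within the calcitonin receptor gene Calcr, each on the strand of the gene. The study paired 15 of the 26 with a human miRNA, and 13 of these had the same sequence in both species, miR-204-5p, miR-431 and miR-370-3p among them. For those, a read from the transplanted human cells and a read from the rat cannot be told apart. The pairing was made for miRNAs found in EVs of cultured hNSCs, so an unpaired miRNA may also have the same human sequence. This was not checked. For miR-7a-5p and miR-340-3p the paired sequences were not identical, and whether reads of human origin were counted there is not known. None of the 26 can be assigned to the rat on this basis.

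The 6 libraries held 321776 to 879059 UMI counts. The second rat of the hNSCs group had the shallowest library, with 86.0% of its counts on known miRNAs against 93.8% to 95.3% in the other 5, and the lowest agreement with the rest (Pearson r of log2 levels across miRNAs 0.971 to 0.980). Levels are given as CPM, counts scaled to a common library total of known miRNA counts, after scaling between libraries by the trimmed mean of M values (TMM). The brain label held. On a scale of all known miRNA counts, before the filter on low counts, miR-124-3p, the defining neuronal miRNA, lay between 1804 and 2803 CPM in these EVs and between 0 and 8.18 CPM in plasma EVs of the same groups and day. The oligodendrocyte miR-219a-5p lay between 1398 and 3655 CPM in brain EVs and between 8.12 and 26.2 CPM in plasma EVs. The liver miRNA miR-122-5p was at most 40.2 CPM in brain EVs against at least 26663 CPM in plasma EVs. The red cell miRNA miR-486 was at 0 in all 6 brain libraries, but only at 2.75 to 16.2 CPM in plasma EVs. Blood cell miRNAs were present in brain EVs, below their plasma levels. miR-451-5p lay between 2.87 and 38.1 CPM, miR-142-3p between 579 and 1148 CPM and miR-223-3p between 293 and 788 CPM. The neuron-enriched miR-128-3p was also present in plasma EVs, at 2790 to 13318 CPM against 23654 to 30783 CPM in brain EVs.

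hNSCs and control rats differed in a single miRNA by the test across all miRNAs. miR-653-5p rose, and 1 of 350 tested miRNAs (0.286%) passed an adjusted p under 0.05 with a change over 1.5-fold (edgeR's quasi-likelihood test with Benjamini-Hochberg adjustment). The next adjusted p was 0.994. At an unadjusted p under 0.05 there were 12 miRNAs (3.43%), of which 10 were higher (2.86%) and 2 were lower (0.571%) in the hNSCs group. With the miR-7 pair as 1, these were 11 miRNAs, 9 higher and 2 lower. They comprised the choroid plexus miRNAs miR-204-5p and miR-1298, the cilia miRNAs miR-34b-5p and miR-34c-5p, the miR-7 pair, miR-431, miR-370-3p, miR-187-3p and miR-653-5p on the higher side, and miR-29a-5p and miR-15b-3p on the lower side. Apart from miR-653-5p none passed the adjusted threshold, and the values below for these miRNAs are descriptions.

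**Figure D1:**
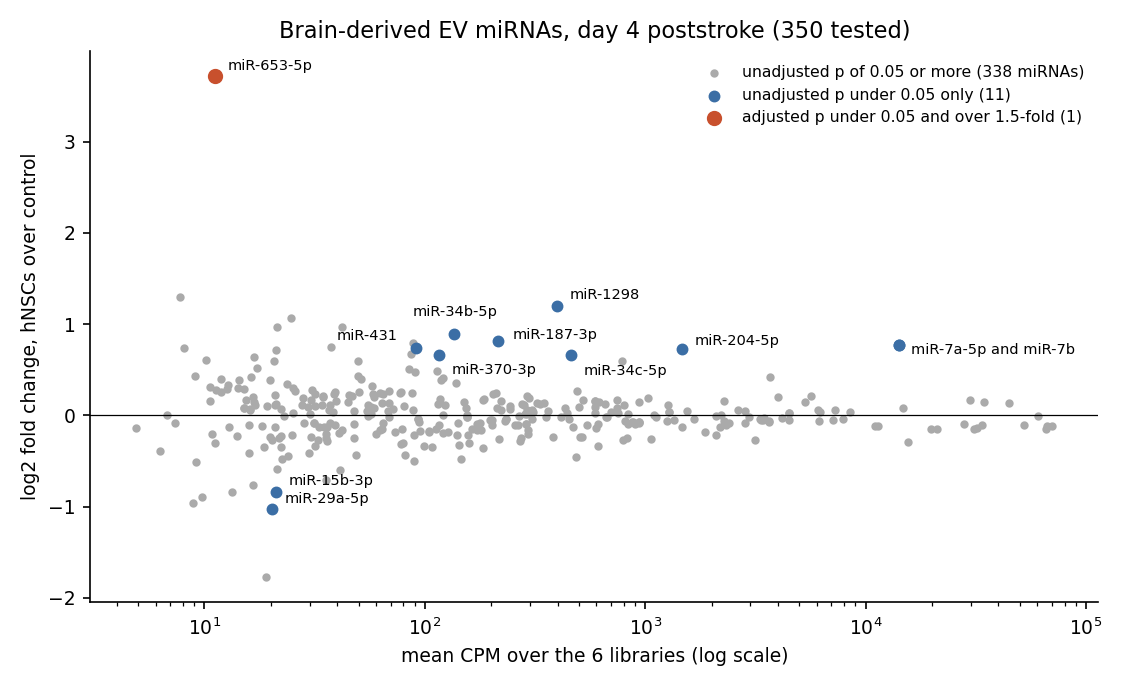
Log2 fold change of hNSCs over control rats (vertical axis) against the mean CPM of the 6 libraries on a log scale (horizontal axis) for the 350 tested miRNAs, 1 point each. Most points lie close to 0, and miR-653-5p stands far above the others at a low level, with a log2 fold change of 3.72.

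Over all 350 miRNAs the median log2 fold change was 0.0043, with 177 miRNAs higher and 173 lower. The levels of the 2 groups did not overlap for 8 miRNAs with hNSCs rats above (2.29%) and for 13 with hNSCs rats below (3.71%). Of the 187 miRNAs at a mean of 100 CPM or more, 178 differed by less than 1.5-fold, and for 170 the 95% interval of the difference stayed within 2-fold in either direction. In that range the values ran from a log2 fold change of -0.48 for miR-331-3p to 1.20 for miR-1298. Across all levels, 6 miRNAs differed by more than 2-fold, 4 higher and 2 lower.

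miR-653-5p, an intronic miRNA of the calcitonin receptor gene, was counted 2, 0 and 1 times in the 3 control rats and 22, 10 and 5 times in the 3 hNSCs rats. In CPM these were 3.12, 0 and 1.44 CPM in the control group and 23.1, 31.5 and 7.89 CPM in the hNSCs group. Every hNSCs rat was above every control rat, and all 6 values rested on few molecules. miR-653-5p passed the filter on low counts across the 21 brain libraries, but not with only the groups compared. The log2 fold change was 3.72 (SE 0.76, adjusted p = 0.0284 by edgeR's quasi-likelihood test), with a 95% interval from 2.13 to 5.31. For the summed counts, 37 against 3 with scaling for depth, the exact 95% interval of the ratio ran from 4.73-fold to 75.8-fold and covers counting error only.

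Outside the day 4 groups no brain library exceeded 20.7 CPM of miR-653-5p, below the levels of 2 of the 3 hNSCs rats. Healthy rats were at 3.41, 9.46 and 18.7 CPM. Control rats were at 10.1, 4.01 and 2.62 CPM at 10 days, which overlapped the control rats at 4 days, and at 20.7, 19.3 and 8.95 CPM at 31 days. Rats given hNSCs were at 8.36, 11.3 and 8.42 CPM at 10 days and at 19.5, 8.57 and 13.9 CPM at 31 days. The hNSCs rats at 4 days, at 7.89 to 31.5 CPM, overlapped the healthy rats and both groups at 10 and 31 days. The control group at 4 days had the lowest mean, 1.52 ± 1.56 CPM (SD, n = 3), with a log2 fold change of -2.89 against the healthy group (adjusted p = 0.0293, edgeR). That contrast shares its control rats with the hNSCs comparison and is set beside it only as a value. The call was lost in 4 of the 6 tests that left out 1 rat. Without the first or the second hNSCs rat the adjusted p was 0.304 and 0.146, and without the second or the third control rat it was 0.386 and 0.179 (edgeR), with the log2 fold change at 3.06 or above.

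**Figure D2:**
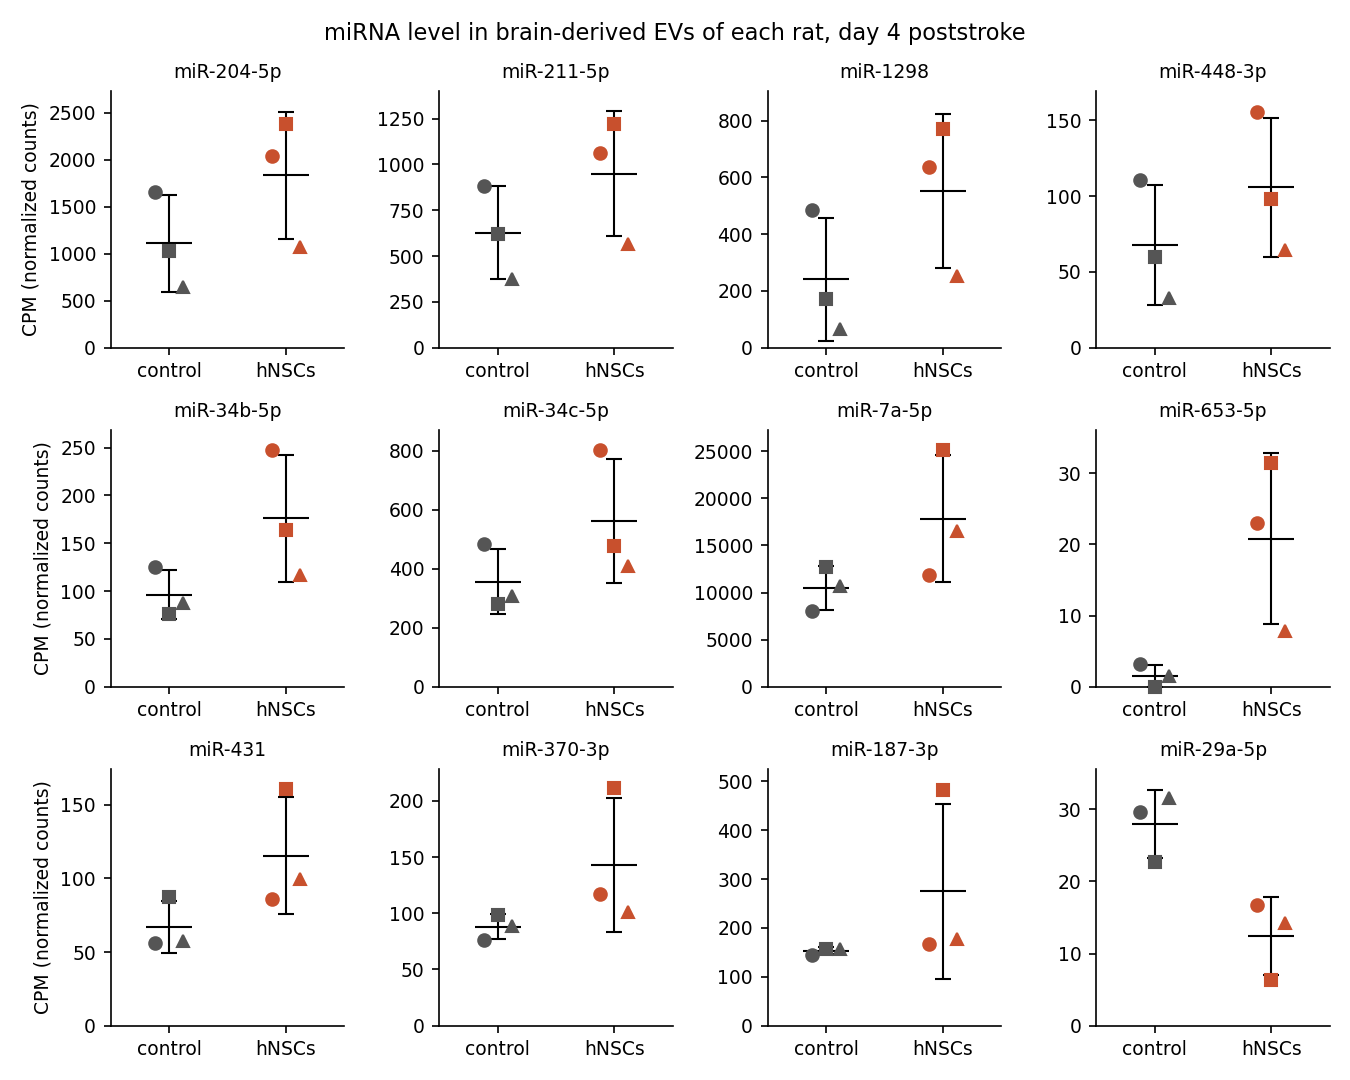
Level of 12 miRNAs in CPM (vertical axes, each from 0) in the 3 control rats (grey) and the 3 hNSCs rats (orange-red) at 4 days, with the mean and SD in black. Circles, squares and triangles are replicates 1, 2 and 3. The groups overlap for the 4 choroid plexus miRNAs of the top row, and they do not overlap for miR-653-5p, miR-370-3p, miR-187-3p and miR-29a-5p.

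Among the choroid plexus miRNAs, the most abundant was miR-204-5p, which also marks pigmented epithelia of the eye. Its level was 1662, 1027 and 644.5 CPM in the control rats and 2045, 2383 and 1076 CPM in the hNSCs rats. The first control rat was above the third hNSCs rat, so the groups overlapped. The means were 1111 ± 514 CPM and 1835 ± 678 CPM (SD, n = 3 each). The log2 fold change was 0.72 (SE 0.34), at an unadjusted p of 0.0442 and an adjusted p of 0.994 in edgeR's test.

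miR-1298, a choroid plexus miRNA carried in an intron of Htr2c, varied most between rats. It was at 484.9, 169.8 and 66.0 CPM in control rats and 635.3, 772.2 and 250.8 CPM in hNSCs rats. The first control rat was again above the third hNSCs rat. The log2 fold change was 1.20 (SE 0.54, unadjusted p = 0.0379 in edgeR's test), and its 95% interval ran from 0.073 to 2.33.

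miR-211-5p, the seed partner of miR-204-5p, was at 882.4, 620.7 and 376.1 CPM in control rats and 1063, 1220 and 567.9 CPM in hNSCs rats, with a log2 fold change of 0.60 (SE 0.32). Its level was 0.512 to 0.604 of that of miR-204-5p in each of the 6 libraries. How reads that match both miRNAs were assigned is not given in the sources used here, so the pair may not be separate observations. miR-448-3p, the Htr2c neighbour of miR-1298, was at 110.7, 59.7 and 33.0 CPM in control rats and 155.2, 97.7 and 64.7 CPM in hNSCs rats, with a log2 fold change of 0.67 (SE 0.38).

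All 4 of these miRNAs had the same order within the control group, with the first rat highest and the third lowest, and all 4 were lowest in the third rat of the hNSCs group. The other tested members of the list, both at low levels, did not. miR-204-3p, the opposite arm of miR-204, was at 35.9, 12.4 and 21.5 CPM in control rats and 13.6, 28.4 and 18.9 CPM in hNSCs rats (log2 fold change -0.25, SE 0.48), and miR-764-3p was at 3.12, 11.3 and 15.8 CPM in control rats and 15.7, 15.8 and 9.46 CPM in hNSCs rats (log2 fold change 0.39, SE 0.50). Of the 11 choroid plexus miRNAs in the table, 6 were tested, 5 were higher and 1 was lower. None passed the adjusted threshold and 2 had an unadjusted p under 0.05 in edgeR's test. Over all 350 tested miRNAs, 177 were higher and 173 lower, and 12 (3.43%) had an unadjusted p under 0.05. The median log2 fold change was 0.63 for the 6 choroid plexus miRNAs, against 0.0043 over all miRNAs. Their summed level was 1157 to 3179 CPM in the control group and 1988 to 4517 CPM in the hNSCs group. The list was chosen with earlier results of these data known, and the study had named miR-204-5p and miR-1298 from these libraries. It also holds miR-204-5p and miR-211-5p as 2, so its counts and median are descriptions and not independent evidence. In bulk EV RNA, more vesicles from a cell type and more of a miRNA per vesicle cannot be told apart.

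The brain EV mRNA libraries that carry the same replicate labels gave a separate reading of choroid plexus RNA. Ttr, which encodes transthyretin, the main secreted protein of the choroid plexus, was at 165.1, 42.0 and 11.3 CPM in control rats and 97.6, 224.1 and 65.4 CPM in hNSCs rats. Clic6, a chloride channel gene of the same epithelium, was at 206.1, 120.3 and 20.4 CPM in control rats and 200.6, 256.3 and 68.2 CPM in hNSCs rats. For both genes the first control rat and the second hNSCs rat were high, the third control rat was lowest, and the groups overlapped. The log2 fold changes were 0.82 (SE 0.67) for Ttr and 0.60 (SE 0.70) for Clic6, and 0 of 14515 mRNAs (0%) passed the adjusted threshold in edgeR's test, with 1093 (7.53%) at an unadjusted p under 0.05.

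**Figure D3:**
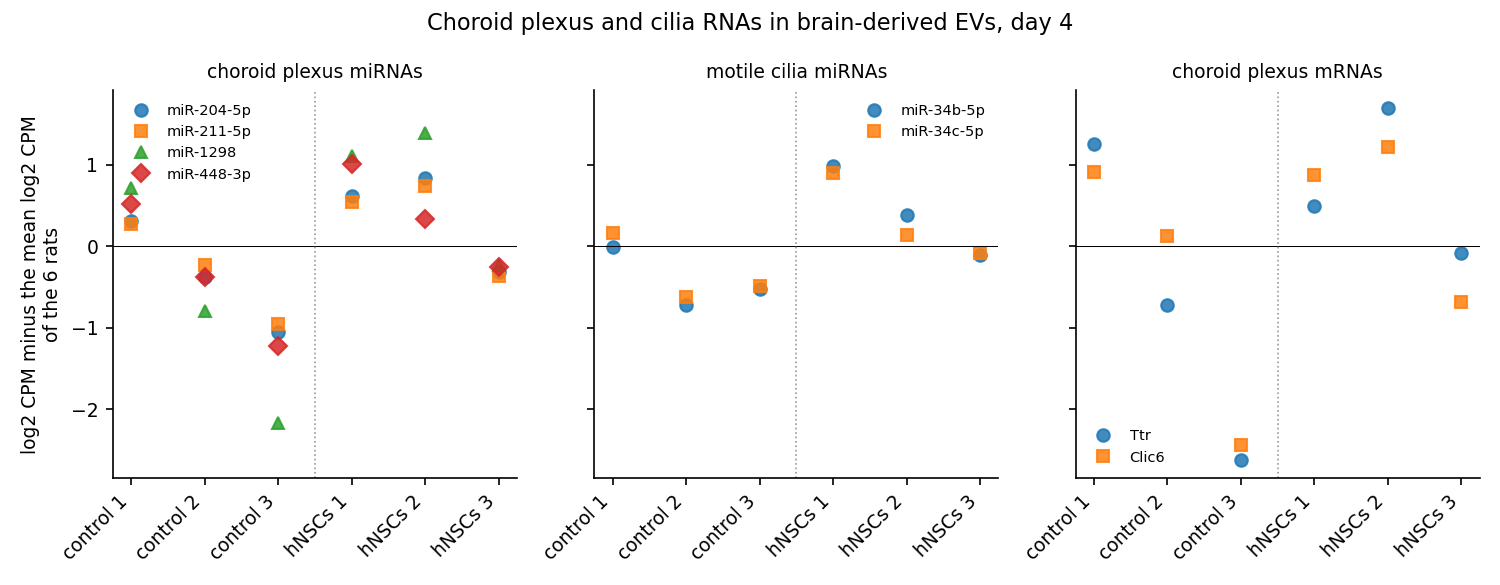
Level of choroid plexus miRNAs, cilia miRNAs and choroid plexus mRNAs in each of the 6 rats at 4 days, as log2 CPM minus the mean log2 CPM of the 6 rats (vertical axis). The third control rat is lowest for the choroid plexus RNAs drawn, and the first control rat lies among the hNSCs rats for each of them. Other tested members of the choroid plexus lists are not drawn. For several of those, among them miR-764-3p, miR-204-3p and Slc4a5, the third control rat was not the lowest.

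Across all 21 brain samples, 9 relations between these RNAs were computed on log2(CPM + 1), each with a permutation test of 100000 resamples and Benjamini-Hochberg adjustment over the 9. Samples were shuffled across all 7 groups, so the p-values mix shifts between groups with differences between rats. The group-centred values were not tested. miR-204-5p and miR-1298 had a Pearson r of 0.926 (adjusted p = 4.5e-05 by permutation) and a Spearman rho of 0.856 (adjusted p = 4.5e-05 by permutation). The unadjusted p of both was 1e-05, the smallest that this number of permutations can give. The r was 0.967 after each group was centred on its mean, and 0.875 without the 2 samples farthest from the median of miR-204-5p. miR-211-5p gave an r of 0.951 with miR-204-5p, with the limit on shared reads given above. For miR-204-5p and miR-448-3p the r was 0.644 (adjusted p = 0.00244 by permutation) and rho was 0.566 (adjusted p = 0.0150 by permutation), with an r of 0.419 without the 2 farthest samples.

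For miR-204-5p, miR-211-5p, miR-1298 and miR-448-3p, the relations with Ttr mRNA lay near that of miR-204-5p with miR-448-3p. They lay below those of miR-204-5p with miR-1298 and miR-211-5p. Here the 2 farthest samples were taken by the level of the miRNA set against Ttr, so they can differ between relations. For miR-1298 and Ttr the r was 0.731 (adjusted p = 0.00111 by permutation) and rho was 0.579 (adjusted p = 0.0150 by permutation), and r fell to 0.481 without the 2 farthest samples. For miR-204-5p and Ttr the r was 0.635 (adjusted p = 0.00244 by permutation) and rho was 0.453 (adjusted p = 0.0461 by permutation), and r was 0.360 without the 2 farthest samples, so this relation leaned on them. Centred within groups, these values were 0.761 and 0.680. miR-211-5p and miR-448-3p had r of 0.670 and 0.641 with Ttr, and 0.352 and 0.550 without the 2 farthest samples. The cilia miRNA miR-34c-5p had an r of 0.122 with Ttr (adjusted p = 0.598 by permutation) and a rho of 0.200 (adjusted p = 0.384 by permutation). Its r was 0.366 without its own 2 farthest samples, against 0.360 for miR-204-5p without those of miR-204-5p. miR-34c-5p and miR-204-5p had an r of 0.447 (adjusted p = 0.0466 by permutation) and a rho of 0.483 (adjusted p = 0.0419 by permutation), with a group-centred r of 0.545. The relations were chosen after the levels had been seen, so their p-values are descriptions. The part of choroid plexus content in the difference between hNSCs and control rats was not tested.

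Of the host genes, Trpm3 and Htr2c were among the mRNAs read, and Trpm1 and Calcr were not analysed here. Trpm3, the host of miR-204, had a log2 fold change of -0.22 (SE 0.42), and Htr2c, the host of miR-1298 and miR-448, had a log2 fold change of 0.66 (SE 0.98). Of 11 choroid plexus genes listed, 10 were tested, 7 were higher and 3 lower, and their summed level was 189.3 to 611.7 CPM in control rats and 253.5 to 735.6 CPM in hNSCs rats. Over all tested mRNAs, 5928 were higher and 8196 lower. Folr1 and Sostdc1 had counts at day 4 only in the second hNSCs rat. The order of Ttr and Clic6 was not that of the whole list. Slc4a5, a bicarbonate transporter gene, was at 84.5, 40.8 and 30.3 CPM in control rats and 0, 43.2 and 54.5 CPM in hNSCs rats (log2 fold change -0.66, SE 0.87), and Otx2 was at -0.63 (SE 1.60). The third control rat was not the lowest for Slc4a5, Otx2, Htr2c or Trpm3. Efnb3, which encodes ephrin-B3 and which the study followed as a target of miR-204-5p, was at 34.9, 31.0 and 6.93 CPM in control rats and 27.3, 16.5 and 16.6 CPM in hNSCs rats. The groups overlapped, and the log2 fold change of Efnb3 was -0.27 (SE 0.76). The study measured its mRNA and protein in a cultured hippocampal cell line grown with hNSCs, and binding in a reporter assay. The values here are mRNA in brain EVs, so they are not a like measure.

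miR-34b-5p and miR-34c-5p come from a single transcript and act in the formation of motile cilia, as on the ependyma that lines the ventricles. miR-34b-5p was at 124.7, 76.2 and 87.6 CPM in control rats and 247.4, 163.9 and 116.7 CPM in hNSCs rats. Only the third hNSCs rat fell below a control rat. The log2 fold change was 0.89 (SE 0.36, unadjusted p = 0.0231 in edgeR's test). miR-34c-5p was at 483.3, 278.9 and 307.2 CPM in control rats and 803.0, 475.9 and 408.6 CPM in hNSCs rats, with a log2 fold change of 0.67 (SE 0.31). The first control rat was above 2 of the 3 hNSCs rats. All 5 tested miRNAs of the cilia list were higher, with a median of 0.21, and none passed the adjusted threshold. The mRNAs of motile cilia did not show this order. Of 5 tested, 1 was higher, 3 were lower and 1 had no counts at 4 days. Foxj1, a transcription factor required for motile cilia, was at 36.8, 43.2 and 41.6 CPM in control rats and 27.9, 47.8 and 8.28 CPM in hNSCs rats. The opposite arms, miR-34b-3p at 0.21 (SE 0.36) and miR-34c-3p at 0.11 (SE 0.40), were closer to 0 on the log2 scale than the arms above.

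miR-7a-5p, a miRNA of neurons and endocrine cells, was the most abundant member with an unadjusted p under 0.05. Its level was 8020, 12701 and 10714 CPM in control rats and 11860, 25155 and 16486 CPM in hNSCs rats. The first hNSCs rat lay below the second control rat, and the highest value came from the second hNSCs rat, the shallow library. The means were 10478 ± 2350 CPM and 17833 ± 6749 CPM (SD, n = 3 each). The log2 fold change was 0.77 (SE 0.33, unadjusted p = 0.0311 in edgeR's test), and it was 0.77 (SE 0.33) for miR-7b, the near-identical miRNA with near-equal counts.

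The second hNSCs rat also carried the highest value of 3 further miRNAs, all given here in CPM. miR-187-3p was at 145.0, 156.5 and 157.9 in control rats and 167.7, 482.2 and 176.7 in hNSCs rats, so the groups did not overlap but 1 rat set most of the difference. miR-370-3p, of the imprinted miRNA region that also holds miR-431, was at 76.4, 98.8 and 89.0 in control rats and 117.4, 211.2 and 101.0 in hNSCs rats. miR-431 was at 56.1, 87.5 and 57.4 in control rats and 86.0, 160.7 and 99.4 in hNSCs rats, and the second control rat was above the first hNSCs rat. Their log2 fold changes were 0.81 (SE 0.35), 0.66 (SE 0.29) and 0.74 (SE 0.31). The second hNSCs rat was the highest library for 8 of the 12 miRNAs with an unadjusted p under 0.05, and for 101 of all 350 tested. With the miR-7 pair as 1, it was highest for 7 of 11. Without it, 5 miRNAs had an unadjusted p under 0.05, and the log2 fold changes of miR-187-3p and miR-7a-5p were 0.18 and 0.45.

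Of the miRNAs that the study names for the brain EVs of hNSCs rats, 8 were listed here, and because it chose them on these libraries their direction is not independent evidence. The same holds for miR-34b-5p, miR-34c-5p and miR-1949, which the study also took from these libraries into its PCR assays, and for miR-3547, which had too few counts to be tested. Of the 8, 7 were higher and 1 was lower, 1 (miR-653-5p) passed the adjusted threshold, and their median log2 fold change was 0.75. With the miR-7 pair as 1, 6 of 7 were higher, with a median of 0.74. Of those not yet described, miR-325-3p was at 24.9, 21.6 and 37.3 CPM in control rats and 43.0, 56.7 and 42.6 CPM in hNSCs rats. Its groups did not overlap, and its log2 fold change was 0.74 (SE 0.37, unadjusted p = 0.0562 in edgeR's test). miR-30b-5p, the member that was lower, was at 160.6, 182.2 and 183.7 CPM in control rats and 158.3, 132.4 and 135.7 CPM in hNSCs rats. The groups lay side by side without overlap, and the log2 fold change was -0.30 (SE 0.44, unadjusted p = 0.504 in edgeR's test), with a 95% interval from -1.21 to 0.61. The SE uses the spread across all 21 brain libraries and is not the scatter of these rats alone.

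On the lower side, miR-29a-5p, the minor arm of the miR-29a hairpin, was at 29.6, 22.6 and 31.6 CPM in control rats and 16.8, 6.30 and 14.2 CPM in hNSCs rats. Every hNSCs rat was below every control rat, on 22 counts or fewer per library, and the log2 fold change was -1.02 (SE 0.37, unadjusted p = 0.0111 in edgeR's test). miR-15b-3p was at 35.9, 34.0 and 11.5 CPM in control rats and 15.7, 15.8 and 14.2 CPM in hNSCs rats. The third control rat was the lowest of the 6, and the log2 fold change was -0.84 (SE 0.39).

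The other miRNAs named by rank of p, all at an adjusted p of 0.994 in edgeR's test, had few counts or small differences. miR-331-3p was lower without overlap, at 165.7 to 173.1 CPM in control rats and 116.6 to 130.9 CPM in hNSCs rats (log2 fold change -0.48, SE 0.23). miR-1949 was higher without overlap, at 20.3 to 35.9 CPM and 37.7 to 67.8 CPM (log2 fold change 0.97, SE 0.51). The groups overlapped for miR-153-5p, miR-296-5p and miR-340-3p, with log2 fold changes of 0.97 (SE 0.52), 1.07 (SE 0.59) and 1.30 (SE 0.71), and for miR-708-3p at -0.71 (SE 0.38).

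The 5 most abundant miRNAs of these EVs were let-7c-5p, let-7a-5p, miR-125b-5p, miR-9a-5p and let-7b-5p, with means of 70460, 66772, 65764, 60513 and 52492 CPM over the 6 libraries. The let-7 miRNAs promote differentiation and miR-9a acts in neural progenitors and neurons. Between hNSCs and control rats their log2 fold changes lay between -0.15 and -0.0062, with SEs of 0.15 to 0.19. For let-7a-5p the 95% interval was -0.42 to 0.19, and for miR-9a-5p it was -0.40 to 0.39. The groups overlapped for each of the 5.

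By cell type and family, the remaining groups had medians between -0.25 and 0.23, and in none of them did a member pass the adjusted threshold. Among 21 tested neuron-enriched miRNAs, 7 were higher and 14 lower, with a median log2 fold change of -0.076. miR-128-3p, the most abundant, was at -0.099 (SE 0.20), and miR-124-3p was at -0.11 (SE 0.23), with 1805, 2805 and 2650 CPM in control rats and 2277, 2112 and 2339 CPM in hNSCs rats. For the imprinted region with miR-379 and miR-410, 35 of 54 were higher and 19 lower, with a median of 0.057. The oligodendrocyte list had a median of 0.14 over 3 miRNAs.

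Among the blood and vessel groups, the 8 myeloid and inflammation miRNAs had a median of -0.15, with 2 higher and 6 lower. miR-21-5p, a miRNA of injury and inflammation, was at -0.12 (SE 0.46), and miR-150-5p, of lymphocytes, was at -0.27 (SE 0.17). All 6 vessel wall miRNAs were lower, with a median of -0.21, and the endothelial miR-126a-3p was at 17135 ± 4457 CPM in control rats and 13967 ± 860.4 CPM in hNSCs rats (SD, n = 3 each). Its log2 fold change was -0.29 (SE 0.19). The 3 red cell miRNAs had a median of -0.24 and summed to 10.0 to 78.2 CPM in control rats and 15.8 to 93.3 CPM in hNSCs rats, and miR-451-5p was at most 38.1 CPM. For liver, 3 were tested, with a median of 0.0028, and miR-122-5p was at -1.78 (SE 1.28). The 6 muscle miRNAs had a median of -0.25, with 5 lower.

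Of the miRNA families, all 13 tested let-7 miRNAs were lower, with a median of -0.12 and a range from -0.59 to -0.049. Because let-7 members differ by few bases, they may share reads. The let-7 sum was 238895 to 285781 CPM in control rats and 209997 to 270113 CPM in hNSCs rats, so the groups overlapped. The 9 miR-30 family miRNAs had a median of 0.14, and the 13 of the miR-17 to miR-92 clusters had a median of -0.079. The list of neuroendocrine and sensory miRNAs, which holds the miR-7 pair, had a median of 0.23 over 6, with the pair counted as 2. miR-210-3p, the hypoxia miRNA tested, was at 0.072, and none of the 9 miRNAs of the epithelial miR-200 family had enough counts to be tested. The 3 miRNAs outside let-7 that the study's text gives as abundant in EVs of cultured hNSCs had a median of -0.11, and each was lower.

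**Figure D4:**
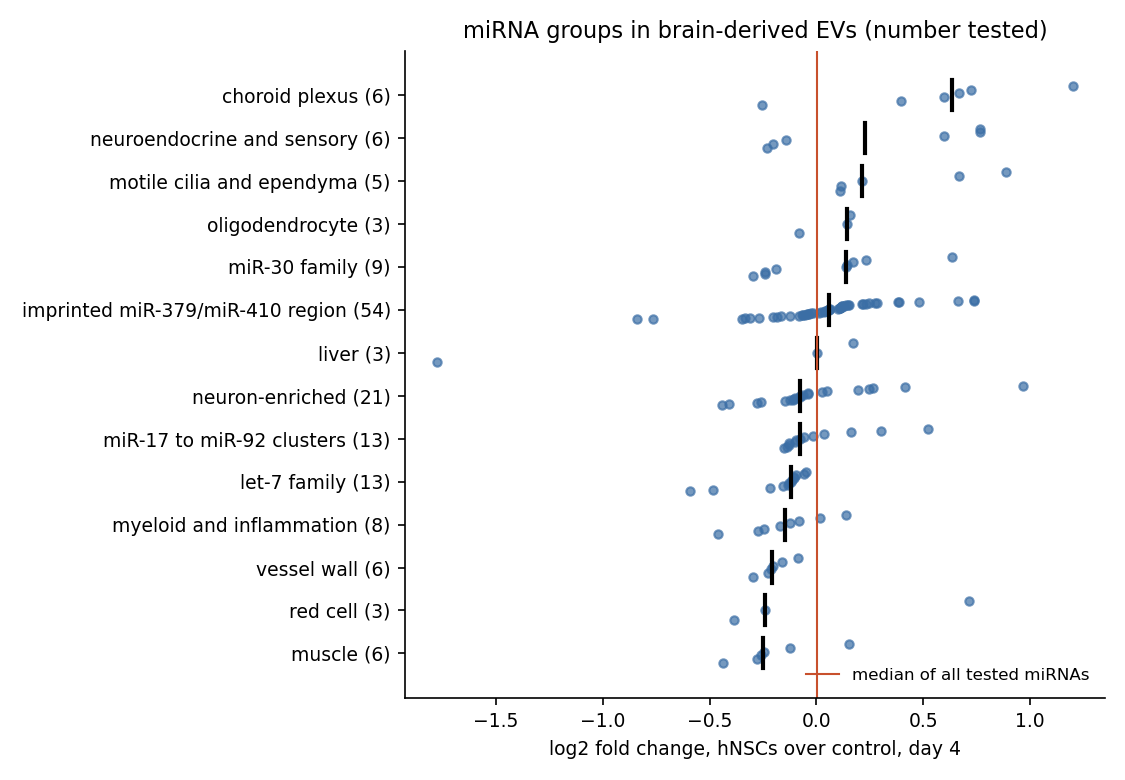
Log2 fold change of hNSCs over control rats at 4 days (horizontal axis) for each tested miRNA of the cell type and family groups, 1 point each, with the group median as a black bar and the number tested in parentheses. Only groups with 3 or more tested miRNAs are drawn. The choroid plexus group has the highest median, 0.63, and muscle has the lowest, -0.25. The lists were chosen with earlier results of these data known, so their order is a description.

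The effect of hNSCs at 4 days was set beside the effects at 10 and 31 days, from other rats. At 10 days 0 of 350 miRNAs (0%) passed the adjusted threshold and 22 (6.29%) had an unadjusted p under 0.05 in edgeR's test. At 31 days these were 0 (0%) and 4 (1.14%). miR-204-5p had log2 fold changes of 0.72, 0.43 and -0.30 at 4, 10 and 31 days, with SEs of 0.34, 0.34 and 0.33. For miR-1298 they were 1.20, 0.48 and -0.41, with SEs of 0.54, 0.54 and 0.53. For miR-7a-5p they were 0.77, 0.0088 and -0.25, with an SE of 0.33 at each day. For miR-653-5p they were 3.72, 0.94 and -0.24, with SEs of 0.76, 0.66 and 0.56.

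The difference between days was tested as an interaction. No miRNA passed for day 10 minus day 4 or for day 31 minus day 4, with 12 (3.43%) and 9 (2.57%) at an unadjusted p under 0.05 in edgeR's test. By DESeq2 the count passing was also 0 for both. At day 31 minus day 4, miR-653-5p had the largest difference of the named miRNAs, with a log2 value of -3.96 (SE 0.97, adjusted p = 0.186 in edgeR's test). miR-204-5p was at -1.02 (SE 0.47), miR-211-5p at -0.97 (SE 0.45), miR-1298 at -1.61 (SE 0.76) and miR-7a-5p at -1.01 (SE 0.47), each at an adjusted p of 1.00. Of the 12 miRNAs with an unadjusted p under 0.05 at 4 days, 9 had the same sign at 10 days and 1 at 31 days. With the miR-7 pair as 1, these were 8 and 1 of 11. These miRNAs were chosen by their values at 4 days, and the differences between days reuse those values. Their signs at the other days are therefore descriptions and no test of a change over time. The share of all tested miRNAs with the same sign was not computed.

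**Figure D5:**
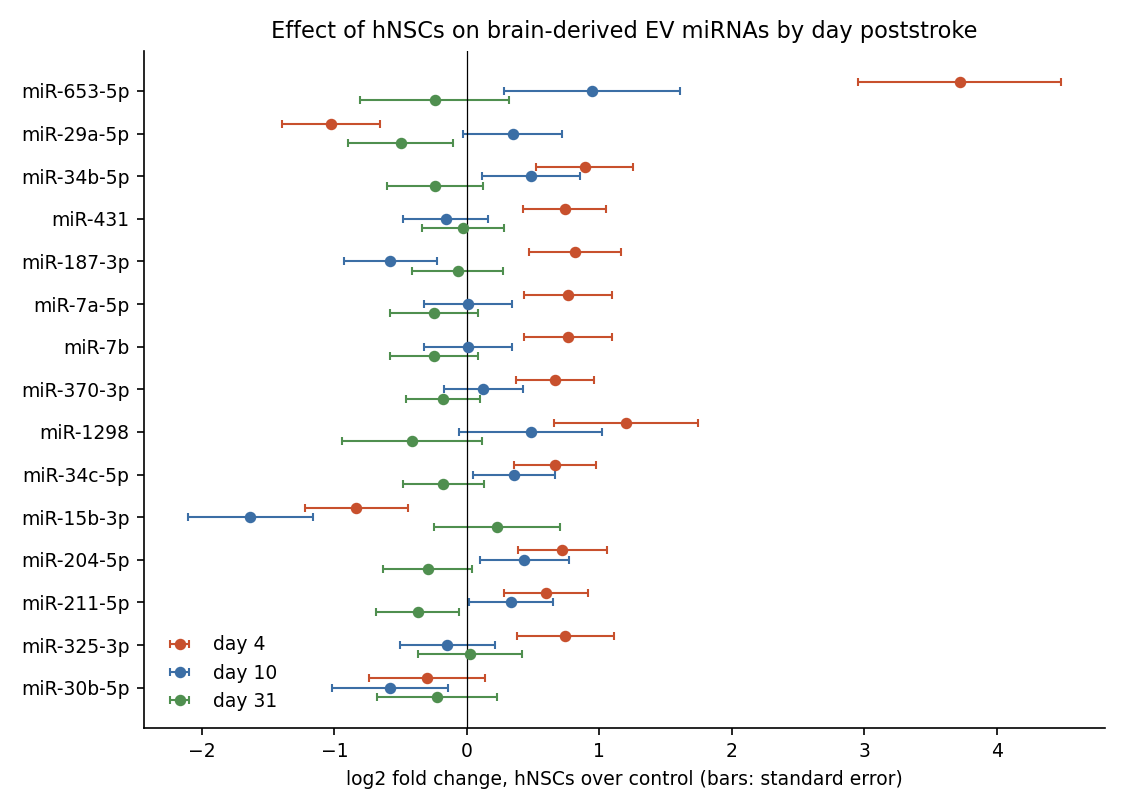
Log2 fold change of hNSCs over control rats with its standard error (horizontal axis) at 4 days (orange-red), 10 days (blue) and 31 days (green) for the 12 miRNAs with an unadjusted p under 0.05 at 4 days and for miR-211-5p, miR-325-3p and miR-30b-5p. At 31 days most points lie at or below 0, while at 4 days 12 of the 15 lie above it. The 12 were chosen by their values at 4 days, so the figure is no test of a change between days.

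The levels in control rats themselves moved over the same days. miR-204-5p was at 644.5 to 1662 CPM in control rats at 4 days, 1035 to 2037 CPM at 10 days and 2686 to 4618 CPM at 31 days, and healthy rats were at 1677 to 2605 CPM. Against healthy rats, control rats at 4 days had a log2 fold change of -1.04 (adjusted p = 0.0430, edgeR). In that contrast 51 of 350 miRNAs (14.6%) passed the adjusted threshold, against 1 of 350 for hNSCs over control. It uses the same control rats as the hNSCs comparison, so the results of these contrasts are not independent.

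In plasma EVs of the day 4 groups, 0 of 309 miRNAs (0%) passed the adjusted threshold, with 14 (4.53%) at an unadjusted p under 0.05 in edgeR's test and 1 call by DESeq2, miR-488-3p. Of the 26 miRNAs named for brain EVs, 17 could be tested in plasma EVs, and the groups overlapped for each of the 17. miR-204-5p was at a log2 fold change of -0.094 (SE 0.75), miR-7a-5p at -0.26 (SE 0.66) and miR-34c-5p at -0.50 (SE 0.62). miR-1298 and miR-653-5p had too few counts to be tested there. The SEs in plasma were larger, with a median of 0.58 against 0.31 in brain EVs.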

How the data were processed

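Small RNA libraries (QIAseq, with unique molecular identifiers) were sequenced by the authors, filtered against other non-coding RNAs with Bowtie, and matched to known miRNAs. The genome build, per the labels, was Rnor_6.0. The authors deposited UMI counts and TPM (counts scaled to a common library total) per miRNA, and counts per gene for the mRNA libraries. Of the table, 699 rows were known and 4790 predicted miRNAs, and the known ones were used. All columns were mapped to samples.

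Counts of the 21 brain libraries (7 groups of 3) were fitted together with edgeR 4.0.16 (R 4.3.3), TMM scaling, filterByExpr and the quasi-likelihood test. The thresholds, an adjusted p under 0.05 and a fold change over 1.5, are those of the study, which used limma. With 3 rats against 3, an exact permutation test of a single miRNA cannot go below p = 0.1. The scripts were tested on simulated data. Alternatives were RLE factors, DESeq2 1.42.0, limma 3.58.1 on log2(TPM + 1) and log2(TPM + 0.1), no filter, a mean TPM over 5, only the groups compared, a replicate block, predicted miRNAs included, an unadjusted p and leaving out each rat. Keeping 1 of each of 11 pairs that share reads was added after seeing the data.

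Named were the miRNAs that passed, the 20 with the lowest p, 8 of those the study names, the 5 most abundant and members of 18 lists. A few others (tissue markers, the plasma call, the relations across samples) were chosen after their values were seen. The members and lists were chosen with earlier results of these data known. Fold changes are fitted values on the count scale. Replicates are labelled as biological. The p-values and SEs of the main edgeR fits use a spread estimated from all 21 libraries of a fit, and not from the compared rats alone. Brain mRNA and miRNA libraries with the same replicate label were taken as 1 rat. No pair of libraries agreed within sampling noise.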

Additional observations from a re-analysis of the deposited data

How the results depend on the processing

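The count of 1 miRNA called at 4 days in brain EVs was also 1 with RLE factors, DESeq2, no filter, a mean TPM over 5, limma on log2(TPM + 1) and with pairs that share reads kept once. It was 0 with limma on log2(TPM + 0.1), where miR-653-5p had an adjusted p of 0.0589, and 0 with predicted miRNAs included, where its adjusted p was 0.481 over more tests. It was 0 with only the groups compared, where miR-653-5p did not pass the filter on low counts, and 12 by an unadjusted p. Leaving out 1 rat gave 0 to 1, with adjusted p from 0.00817 to 0.386 for miR-653-5p, and 5 to 14 miRNAs at an unadjusted p under 0.05. For day 10 minus day 4 the count was 0 in each alternative except the unadjusted p, which gave 12. For day 31 minus day 4 it was 0 except for 2 without a filter (miR-122-5p and miR-653-5p), 9 by an unadjusted p, and 0 to 1 when 1 rat was left out (1 without the third hNSCs rat of day 4, miR-653-5p). In plasma EVs it was 0 except for 1 with DESeq2, without a filter or with only the groups compared (miR-488-3p each time), and 14 by an unadjusted p. The causes were not tested.

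Replicate numbers are shared by the groups. Deviations of same-numbered control and hNSCs libraries correlated at -0.169, -0.0288 and 0.0926, so the numbers were not taken to pair rats. With a replicate block the count stayed at 1 at 4 days, with miR-653-5p at a log2 fold change of 3.67 and an adjusted p of 0.0332 (edgeR), and at 0 in the other 3 tests.

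Of 413 values for the 26 named miRNAs under the alternatives, 405 kept their direction or stayed within 1 SE and their side of the threshold, 6 for miR-653-5p lost the call, and 2 moved. This count sets no limit on size, and only miR-653-5p had a call to lose. The 405 hold miR-187-3p at values down to 0.18 against 0.81 in the main fit, and miR-153-5p down to 0.35 against 0.97. The 2 that moved were miR-125b-5p and miR-9a-5p, at 0.051 and 0.20 without the second hNSCs rat. Depth limits the rare miRNAs. The median SE was 0.25 at 100 CPM or more and 0.39 below it.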
